A study of Mus musculus with 4 samples.

Results

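Interferon-stimulated genes were followed across the cells of mouse bone marrow. The module held 39 named genes, listed by symbol with earlier results of these data known. Of the 39 genes, 38 had a row among the 32544 genes of the files, and Mx1, an antiviral GTPase, was not analysed here. The series compared bone marrow of wild-type (WT) mice with that of YAP1 heterozygote mice, both 10 weeks old, in 2 libraries per genotype. YAP1 is a transcriptional coactivator restrained by Hippo signalling, and the study's title links it to platelet formation in immune thrombocytopenia. The labels describe flow-sorted nucleated marrow cells and name no agent, strain, targeted allele, Cre driver or sort gate. They do not say that the libraries of a genotype came from separate animals, but sex-linked genes, given below, place them in animals of different sex. Between genotypes, p-values of the main fit measure the spread between these libraries, which includes sex as well as any technical difference. Where cells are compared within libraries, with library as a block, p-values measure how that difference varies between libraries.

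Type I interferons bind the receptor Ifnar1 and Ifnar2 on nearly every cell and activate the kinases Jak1 and Tyk2. A complex that contains Stat2 and Irf9, ISGF3, then enters the nucleus and switches on genes whose promoters hold an interferon-stimulated response element. The products block viral RNA and protein synthesis, sense foreign nucleic acid and feed back on the pathway, and a small neutrophil subset that carries them at rest is a known feature of mouse marrow and blood.

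The libraries held between 112806900 and 119855112 UMIs (unique molecular identifiers, each counted as 1 captured transcript). After filters on depth and mitochondrial share and removal of called doublets, 12418 and 11367 cells were kept from WT replicates 1 and 2, and 10565 and 13231 from YAP1 heterozygote replicates 1 and 2, with median UMI counts between 5518 and 6747. The files shared 305 of 50760 distinct barcodes between libraries, and none was in 3 or more. Yap1 itself gave 6, 7, 0 and 6 UMIs over the kept cells in that order, and 3' counts do not check the genotype. Levels are given as CPM, UMIs scaled to a common library total. The Y-linked gene Ddx3y was at 100.5 CPM in WT replicate 1, 67.8 CPM in YAP1 heterozygote replicate 1 and at most 0.027 CPM in the other libraries, which instead held Xist at 885 and 864 CPM. Sex thus goes with the replicate number in both genotypes. WT replicate 1 stood apart: 2 clusters of mature neutrophils led by inflammatory genes such as Cxcl2 and Nfkbiz came to 92.6% and 84.1% from it. Results on mature neutrophils that move without this library or these clusters are given both ways.

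Cells were grouped without the members and 86 further interferon pathway genes, and groups were named from marker lists as "-like" classes. The module itself thus did not enter the grouping. Genes outside both lists that rose in the high subset described further on could still enter it. Of 31 clusters, 30 fell into 19 named classes, and cluster 20 was kept by its number because genes of macrophages and of conventional dendritic cells both led it. In 18 of these classes, cluster 20 included, every library had at least 20 cells.

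The members lie on 13 chromosomes, and several sit side by side. All 4 Ifit genes lie within chr19:34550694-34650009, in GRCm38 coordinates of GENCODE M21. Rsad2 (chr12:26442746-26456452) neighbours Cmpk2 (chr12:26469204-26479837). The Slfn genes lie on chromosome 11 and the Oas and Oasl genes on chromosome 5. Members of these families share long stretches of sequence, so the split of reads among Ifit3 and Ifit3b, or within the Oas, Slfn, Gbp and Trim30 families, is uncertain.

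RefSeq promoter windows (GRCm38.p6, 250 bases before to 50 after the start) were matched by symbol for 32 of the 39 members. Dhx58, Mx1, Oas2, Parp14, Rtp4, Usp18 and Zbp1 had none. The core of the interferon-stimulated response element was searched on both strands as GAAA followed, after any 2 bases, by a second GAAA (TTTC and TTTC on the other strand). It was found in the windows of 18 of the 32 members (56.2%), against 3.99% of all 27025 genes with a window and 3.44% of the 32851 windows. A match is a description of letters, not a bound site. The stretches below give the 160 bases before the start, 5' to 3' along the gene, for members on which the results turn, with matches of the GAAA repeat in capitals. Ifit3, Rsad2 and Isg15 are core responders, Bst2 and Igtp lead in plasmacytoid dendritic and T cells, Isg20 leads in erythroid progenitors and Samd9l changed least in the high subset described further on.

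Ifit3 (chr19:34583369-34583528, plus strand): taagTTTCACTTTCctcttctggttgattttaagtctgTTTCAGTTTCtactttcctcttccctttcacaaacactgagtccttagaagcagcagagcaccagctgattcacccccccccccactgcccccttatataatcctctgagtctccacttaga
Rsad2 (chr12:26456453-26456612, minus strand): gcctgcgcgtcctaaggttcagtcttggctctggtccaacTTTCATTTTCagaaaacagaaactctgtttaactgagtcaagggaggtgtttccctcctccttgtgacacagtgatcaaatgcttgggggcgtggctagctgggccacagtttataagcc
Isg15 (chr4:156200819-156200978, minus strand): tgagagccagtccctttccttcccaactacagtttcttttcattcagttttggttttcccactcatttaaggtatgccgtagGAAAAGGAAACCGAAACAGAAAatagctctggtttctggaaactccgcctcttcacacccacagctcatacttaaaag
Bst2 (chr8:71537473-71537632, minus strand): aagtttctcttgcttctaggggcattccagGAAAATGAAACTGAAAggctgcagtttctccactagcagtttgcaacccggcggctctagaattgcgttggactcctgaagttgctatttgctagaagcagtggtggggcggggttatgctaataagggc
Igtp (chr11:58199396-58199555, plus strand): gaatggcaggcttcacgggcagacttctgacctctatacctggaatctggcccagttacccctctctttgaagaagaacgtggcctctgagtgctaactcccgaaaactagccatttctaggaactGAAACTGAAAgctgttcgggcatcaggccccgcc
Isg20 (chr7:78913264-78913423, plus strand): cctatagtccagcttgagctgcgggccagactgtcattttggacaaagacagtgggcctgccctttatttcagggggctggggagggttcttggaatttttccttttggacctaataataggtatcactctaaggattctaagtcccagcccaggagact
Samd9l (chr6:3399572-3399731, minus strand): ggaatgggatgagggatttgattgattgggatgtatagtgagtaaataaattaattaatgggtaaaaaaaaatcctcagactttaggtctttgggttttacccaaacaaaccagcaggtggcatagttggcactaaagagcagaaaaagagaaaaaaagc

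Ifit3 carries a pair of separate matches, and Isg15 and Bst2 carry overlapping ones. Isg20 and Samd9l have no match in these bases. No match says only that these letters are not in the window.

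Between cell classes the module spanned a wider range than between libraries of a class. Among the 18 classes with at least 20 cells per library, the summed level of the 38 members was highest in plasmacytoid dendritic cell-like cells, the marrow's specialised interferon producers, at 4305 and 5074 CPM in WT replicates 1 and 2 and at 4994 and 5413 CPM in YAP1 heterozygote replicates 1 and 2. Cluster 20 (1899 ± 112 CPM, mean ± SD over the 4 libraries), macrophage-like cells (1623 ± 222), monocyte-like cells (1620 ± 143) and mature neutrophil-like cells (1526 ± 171) followed, and each of these overlapped its neighbour. Without Bst2 the order changed: plasmacytoid dendritic cell-like cells were at 1221 ± 55.3 CPM, below cluster 20 (1634 ± 107), mature neutrophil-like (1518 ± 171), monocyte-like (1449 ± 120) and macrophage-like cells (1434 ± 185). S100a8 and S100a9, abundant neutrophil transcripts, summed to 137362 CPM in macrophage-like cells (median depth 1664 UMIs), against 296203 CPM in mature neutrophil-like and 7112 CPM in monocyte-like cells. How much of the macrophage-like module level is neutrophil RNA was not tested. T cell-like cells stood next at 1053 ± 90.1 CPM. Their highest library (1178 CPM) lay below the lowest of the mature neutrophils (1360 CPM). Immature neutrophil-like cells held 655 ± 9.0 CPM. Neutrophil precursor-like (321 ± 27.6) and granulocyte-monocyte progenitor-like cells (350.3 ± 14.4) were lowest, with overlapping ranges. Along the neutrophil lineage the level was thus lowest in precursors, intermediate in immature and highest in mature cells, with no overlap between these stages in any of the 4 libraries.

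**Figure D1:**
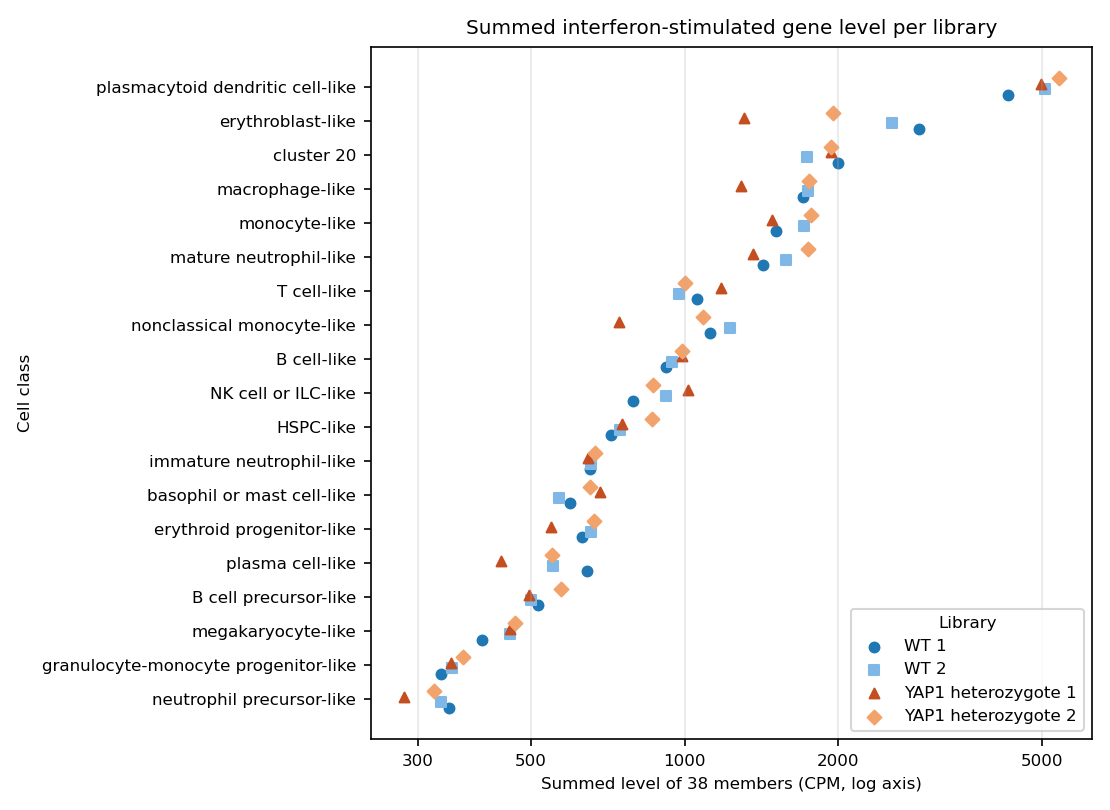
Summed level of the 38 measured members (CPM, log axis) in each cell class, with a point per library (blue WT, orange YAP1 heterozygote). Plasmacytoid dendritic cell-like cells lie at 4305 to 5413 CPM and neutrophil precursor-like cells at 282 to 345 CPM. The erythroblast-like class is drawn although WT replicate 1 had 13 such cells.

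The members did not share a single pattern over these 18 classes, which leave out the few erythroblast-like cells described further on. Mature neutrophil-like cells had the highest mean of 11 members, plasmacytoid dendritic cell-like cells of 8, cluster 20 of 7, monocyte-like cells of 5 and T cell-like cells of 3. A 3' UMI is counted once per molecule, so CPM was not scaled by transcript length. The order of genes below is one of counted UMIs, and it is uncertain within the families of related sequence named above. Of the 10 members with the highest mean over all kept cells, Bst2 came first (152 ± 14.1 CPM, n = 4 libraries), then Samd9l (113 ± 6.22), Trim30a (70.5 ± 6.63), Slfn4 (59.1 ± 4.99) and Irf9 (43.2 ± 3.09). Slfn5 (41.4 ± 4.06), Isg20 (38.3 ± 13.5), Isg15 (29.8 ± 4.98), Cmpk2 (27.8 ± 1.44) and Ddx58 (24.8 ± 1.0) completed them. The Ifit genes, the textbook markers of an interferon response, were among the lowest, from 1.94 CPM for Ifit3b to 6.60 CPM for Ifit2.

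**Figure D2:**
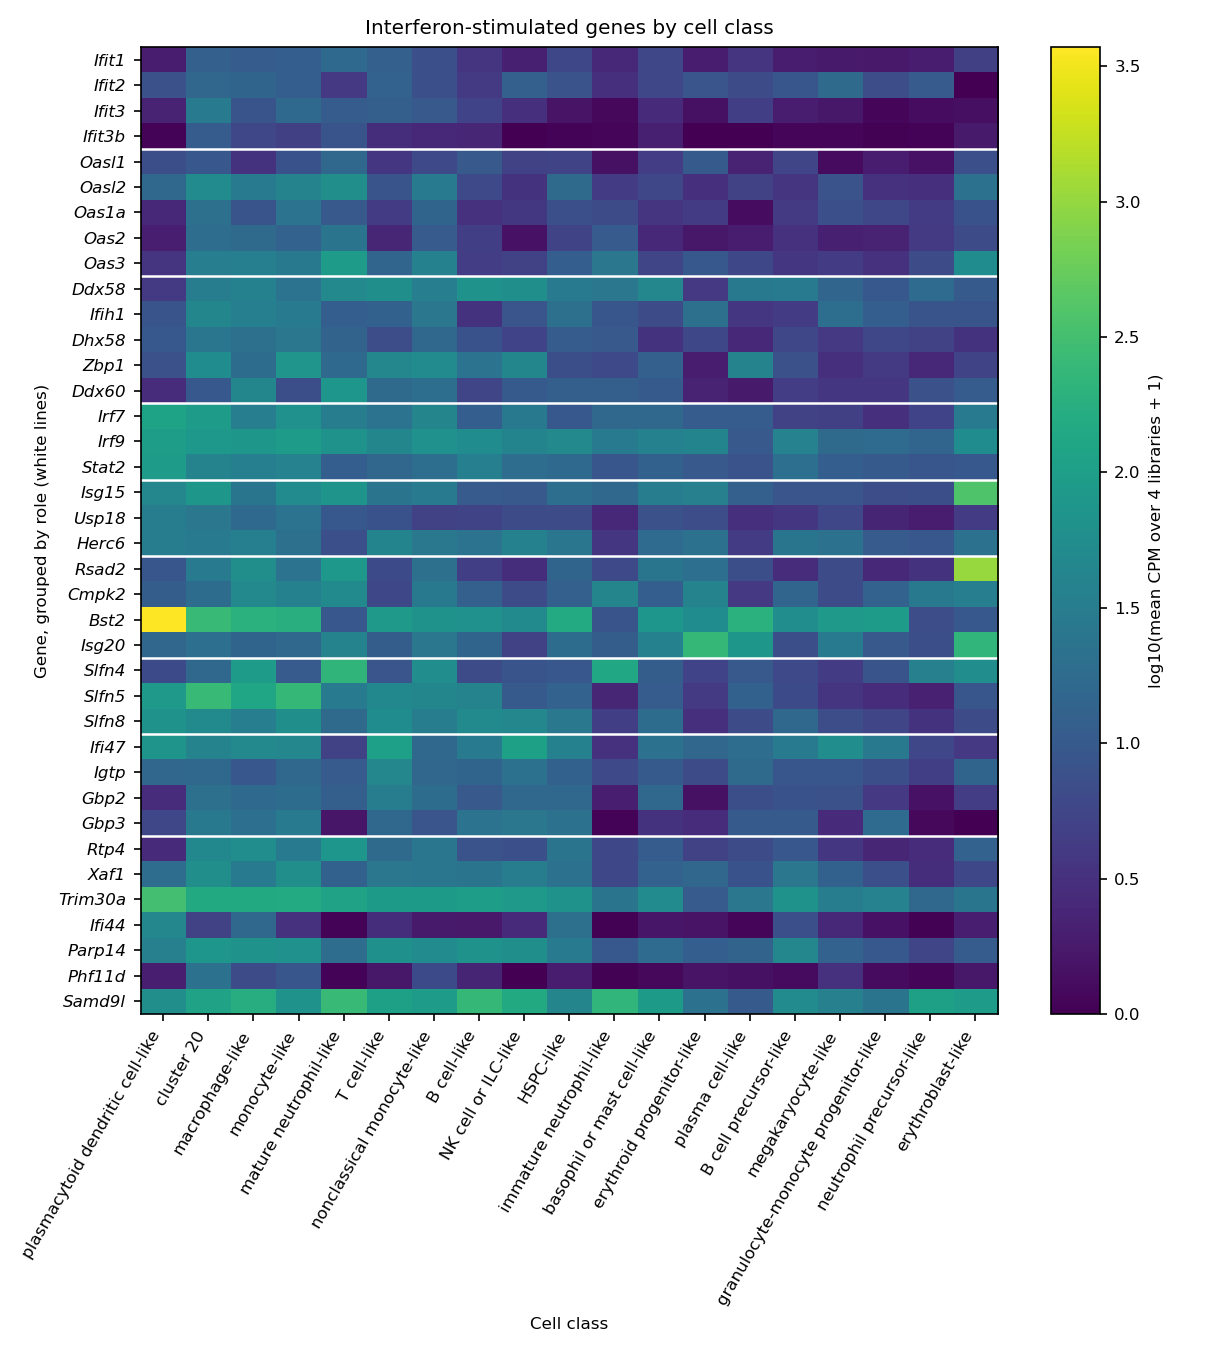
Level of each of the 38 measured members (rows, grouped by role between white lines) in each cell class (columns, in the order of their summed level, with erythroblast-like cells added at the right), as log10 of the mean CPM over 4 libraries plus 1. Bst2 in plasmacytoid dendritic cell-like cells and Rsad2 in erythroblast-like cells are the brightest cells of the map.

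Among the transcription factors, Irf7, the factor that amplifies interferon production, had its highest mean in plasmacytoid dendritic cell-like cells (117 ± 11.5 CPM) with cluster 20 next (90.2 ± 17.8) and overlapping. Stat2, a subunit of ISGF3, measured 104.8, 76.5, 98.9 and 77.4 CPM in plasmacytoid dendritic cell-like cells of WT replicates 1 and 2 and YAP1 heterozygote replicates 1 and 2. The next class, cluster 20, averaged 38.8 CPM, and no library overlapped. Irf9, the DNA-binding subunit of ISGF3, was flatter, at 97.0 ± 1.80 CPM in plasmacytoid dendritic cell-like and 89.0 ± 5.26 CPM in monocyte-like cells.

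Bst2, or tetherin, holds budding virus at the membrane and is a surface marker of mouse plasmacytoid dendritic cells. It measured 3139, 3831, 3806 and 4125 CPM in that class, in the library order given above. Cluster 20 came next at 265 ± 13.3 CPM, a ratio of 14.1 between the class means. Bst2 alone thus made up most of the summed module level of plasmacytoid dendritic cell-like cells, while their 11 measured core genes (the Ifit, Oasl and similar strict responders) summed to 125 ± 24.5 CPM, below the 386 ± 70.0 CPM of mature neutrophil-like cells. Trim30a, a TRIM protein that restrains Toll-like receptor signalling, measured 316, 276, 328 and 340 CPM there, against 153 ± 10.6 CPM in monocyte-like cells. Ifi44 measured 43.4, 48.1, 40.3 and 43.0 CPM there, against 19.6 ± 6.98 CPM in HSPC-like cells, the stem and early progenitor cells.

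The oligoadenylate synthetases make the second messenger that activates RNase L. Oas3 measured 79.7, 90.3, 87.6 and 102.8 CPM in mature neutrophil-like cells, 2.48 times the mean of the next class, nonclassical monocyte-like cells (36.3 ± 7.41). Its relatives Oasl1, Oasl2 and Oas2 also had their highest means there, and Oasl1 was the only one of these 3 whose libraries did not overlap those of the next class. Of the Schlafen genes, regulators of proliferation and tRNA in immune cells, Slfn4 measured 224, 213, 212 and 222 CPM in mature neutrophil-like cells and 139 ± 15.5 CPM in immature ones. Slfn5 was carried instead by cluster 20 (256 ± 22.8 CPM) and monocyte-like cells (240 ± 18.5 CPM), which overlapped.

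Lymphocytes carried another set. Igtp (Irgm3), an immunity-related GTPase known for its induction by interferon gamma, measured 41.8, 36.1, 59.3 and 38.8 CPM in T cell-like cells, 2.16 times the mean of NK cell or ILC-like cells (20.3 ± 7.67). Ifi47, another GTPase of that family, was at 106 ± 17.2 CPM in NK cell or ILC-like and at 102 ± 12.6 CPM in T cell-like cells. Ddx58, which encodes the RNA sensor RIG-I, had its highest mean in B cell-like cells (65.8 ± 5.87 CPM), overlapping T cell-like cells (58.2 ± 6.63). Phf11d was highest in cluster 20, at 16.5, 28.0, 22.8 and 18.7 CPM, against 8.02 ± 1.36 CPM in monocyte-like cells.

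Erythroblast-like cells carried Isg20, Rsad2 and Isg15 with few transcripts of the Ifit genes. In erythroid progenitor-like cells only Isg20 had its highest mean of the 18 classes. Pooled, Rsad2 was at 20.5 CPM and Isg15 at 35.8 CPM in these progenitors, below their means in mature neutrophil-like cells (78.5 and 69.6 CPM). Isg20, a 3' to 5' exonuclease, measured 208, 261, 236 and 255 CPM in erythroid progenitor-like cells, 3.15 times the mean of plasma cell-like cells (76.1 ± 14.4). Erythroblast-like cells were few (13, 70, 40 and 105 cells), and their values are a description. In them Rsad2, which encodes the antiviral enzyme viperin, measured 1605, 1125, 586 and 855 CPM. Isg15, the ubiquitin-like modifier, measured 454, 561, 102 and 405 CPM in the same libraries. Ifit3 gave 1 UMI and Ifit1 gave 8 UMIs over all 228 cells. Both WT libraries were above both YAP1 heterozygote libraries for Rsad2, and this class was too small in WT replicate 1 to be tested. Their summed module level was 2876, 2550, 1310 and 1948 CPM. S100a8 and S100a9 summed to 107784, 40285, 124822 and 77858 CPM in these cells, and the part of neutrophil RNA in their levels was not tested.

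Rsad2 was found in most erythroblast-like cells and not in a few. It had a UMI in 190 of 228 cells (83.3%, 95% Wilson interval 78.0 to 87.6, median depth 5101.5 UMIs), against 21.9% of erythroid progenitor-like cells (median depth 27967 UMIs). Granulocyte-monocyte progenitor-like cells, at a median of 26344 UMIs, had one in 2.52%, and immature neutrophil-like cells, at 9358 UMIs, in 3.22%. Isg15 had a UMI in 41.7% of erythroblast-like, 30.2% of erythroid progenitor-like and 9.81% of granulocyte-monocyte progenitor-like cells. Ifit1 had a UMI in 2.19%, 1.56% and 1.35% of these cells. Depth differs between the classes, and the pooled Ifit1 level was 6.14 CPM (8 UMIs) in erythroblast-like, 0.811 CPM in erythroid progenitor-like and 0.772 CPM in granulocyte-monocyte progenitor-like cells, so no order is read from the shares. Intervals cover counting error only.

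To describe the high subset, each cell was thinned to 1000 UMIs and called high with at least 5 UMIs from the core list. This list has 12 members, of which 11 were measured: Ifit1, Ifit2, Ifit3, Ifit3b, Rsad2, Isg15, Oasl1, Oasl2, Cmpk2, Usp18 and Rtp4. High cells made up 418 of 47005 cells with enough depth (0.889%), and 304 of them (72.7%) were mature neutrophil-like. Among mature neutrophil-like cells, 88 of 4062 (2.17%, 95% Wilson interval 1.76 to 2.66) were high in WT replicate 1 and 74 of 3450 (2.14%, 1.71 to 2.68) in WT replicate 2. In YAP1 heterozygote replicates 1 and 2 these were 57 of 3305 (1.72%, 1.33 to 2.23) and 85 of 3877 (2.19%, 1.78 to 2.70). The genotypes overlapped, and all 4 intervals overlapped.

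The core genes were unevenly spread over these cells. Between 71.7% and 79.0% of mature neutrophil-like cells per library had no core UMI after thinning. Counted before thinning, the high cells held between 22.7% and 29.8% of all core UMIs of these cells. The top cell of a library held 51 to 63 core UMIs per 1000. The distribution showed no gap at the limit of 5. In the order of libraries above, 40, 35, 31 and 57 cells had 4 core UMIs and 26, 17, 20 and 25 had 5. High cells are thus defined by a cut. Counting error after thinning can blur a gap, so these counts cannot tell a continuous tail from a separate group.

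**Figure D3:**
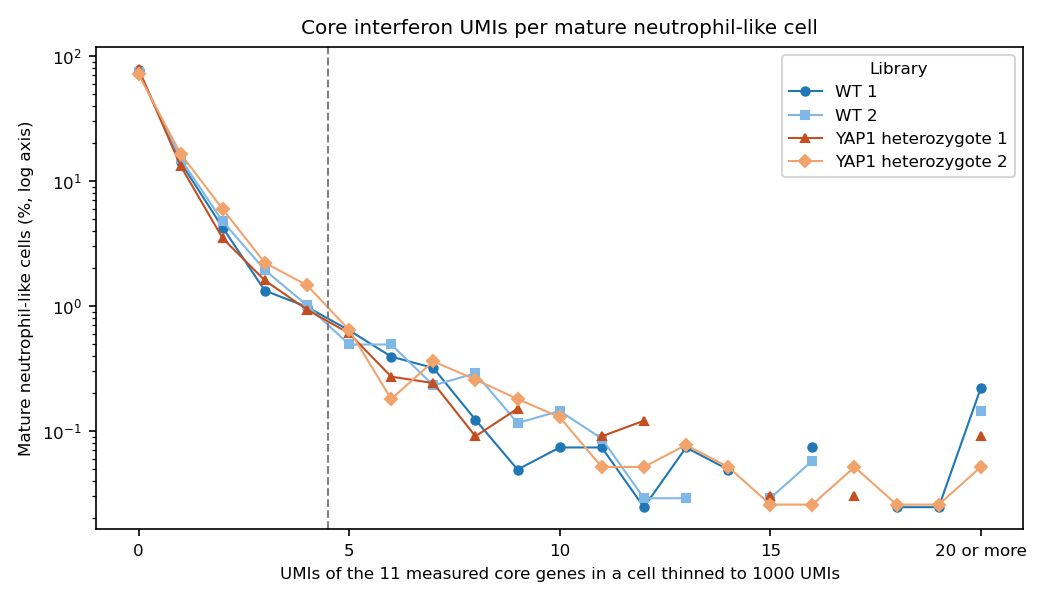
Share of mature neutrophil-like cells (%, log axis) by the number of core UMIs in a cell thinned to 1000 UMIs, with a line per library; the dashed line marks the limit of 5 and the last point pools cells with 20 or more. The 4 libraries follow the same decline, and between 1.72% and 2.19% of cells lie right of the line.

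High neutrophils were shallower than the rest. Their median depth was between 2477 and 2608.5 UMIs per library, against 4036.5 to 4926.5 UMIs for the other mature neutrophil-like cells. By cluster, 174 of 3307 cells (5.26%) were high in cluster 0, led by Il1b and Csf3r, and 8 of 4055 (0.197%) in cluster 9. Of the 2 clusters that came mostly from WT replicate 1, cluster 19 had 58 of 1409 (4.12%) and cluster 5 had 0 of 403, which allows a share of up to 0.744%. Without these 2 clusters the WT share averaged 1.84% in place of 2.16%, and the YAP1 heterozygote share 1.96% either way. When the interferon genes were left in the clustering, 252 of the 304 (82.9%) fell into a single cluster of 704 cells, with 163, 175, 129 and 237 cells per library.

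Other classes held few high cells. Monocyte-like cells had 45 of 4326 (1.04%) and immature neutrophil-like cells 1 of 4209 (0.024%). None was seen among 2897 neutrophil precursor-like or 2769 granulocyte-monocyte progenitor-like cells. Erythroblast-like cells had the highest share (30 of 212, 14.2%), but with another make-up: Rsad2 and Isg15 gave 94.3% of the core UMIs of those high cells and the Ifit genes 0.696%. In high mature neutrophil-like cells these shares were 49.3% and 21.0%, and in high monocyte-like cells 34.9% and 36.3%. Each of the 45 high monocyte-like cells had an Ifit UMI, against 4 of the 30 high erythroblast-like cells. No class other than the mature neutrophils had 20 high cells in every library, so the comparison of high with other cells was made in them alone.

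The 27 measured members outside the core list did not choose the high cells. In the edgeR fit with library as a block, 25 were tested, and all 25 rose in high cells, with a median log2 fold change of 3.22. Gbp3 passed the filter on low counts only through the high cells and so had to differ. The other 24 passed by the other cells alone, and all 24 were called higher, with a median of 3.13. Over all 9380 genes tested, 6.86% were called higher and 10.4% lower. For each of the 25, the lowest high sum lay above the highest other sum among the 4 libraries. Ifi44 and Phf11d were too low to be tested. DESeq2 called 699 genes higher and 404 lower, and its scaling puts the median of all genes at 0.62 in place of -0.19; it called 25 of 27 members, none lower. The fitted changes, scaled by TMM factors, lie a median of 0.35 below the log2 ratios of the CPM.

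**Figure D4:**
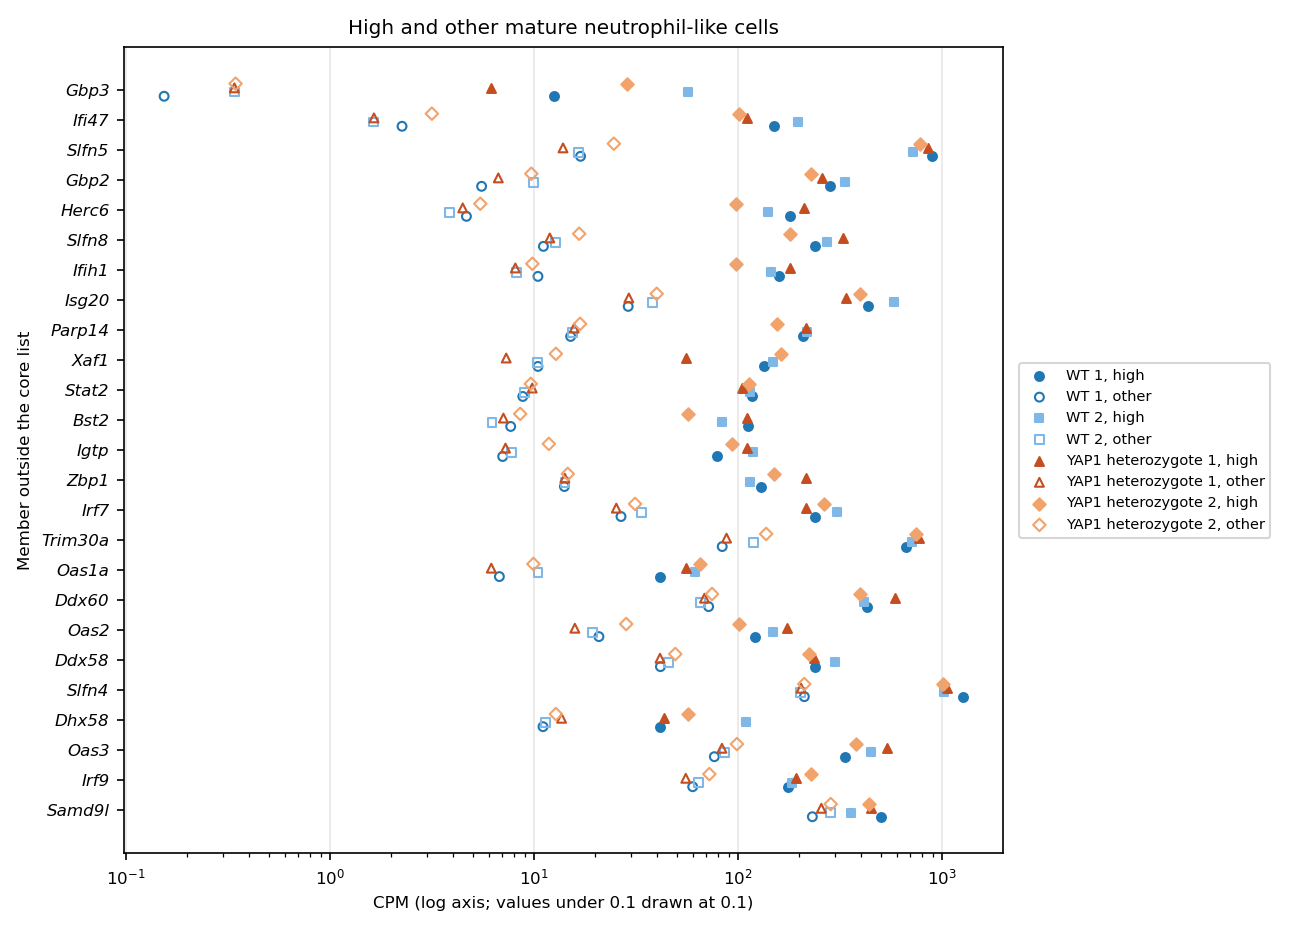
CPM (log axis) of the 25 tested members outside the core list in high (filled) and other (open) mature neutrophil-like cells, with a symbol per library, ordered by fitted change. Every filled symbol of a gene lies right of its open symbols, with the widest gap for Gbp3 and the narrowest for Samd9l.

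Of the pattern sensors, Ifih1 (MDA5, a sensor of long double-stranded RNA) measured 158, 145, 179 and 97.5 CPM in high and 10.5, 8.2, 8.1 and 9.81 CPM in other cells, a log2 fold change of 3.61 (SE 0.24). Zbp1, a sensor of Z-form nucleic acid, rose by 3.03 (SE 0.22), Ddx60 by 2.34 (SE 0.11), Ddx58 by 2.13 (SE 0.14) and Dhx58 by 2.03 (SE 0.29) on the same scale. All 5 of these members were called higher.

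The transcription factors differed among themselves. Stat2 measured 117, 114, 105 and 114 CPM in high cells and 8.81, 8.99, 9.80 and 9.64 CPM in other cells (log2 fold change 3.25, SE 0.25). Irf7 rose by 2.79 (SE 0.15). Irf9 was already at 62.9 ± 7.19 CPM in other cells and rose by 1.28 (SE 0.15), the second smallest change among the 25.

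GTPases that act on pathogen vacuoles were scarce in other neutrophils. Gbp3 rested on 21 UMIs there, so its fitted change depends on the prior count. It measured 12.5, 56.9, 6.18 and 28.4 CPM in high and 0.154, 0.339, 0.340 and 0.344 CPM in other cells (log2 fold change 6.06, SE 0.65). Ifi47 measured 149.97, 197, 111 and 102 CPM against 2.25, 1.64, 1.64 and 3.16 CPM (5.66, SE 0.29). Gbp2 (4.78, SE 0.20) and Igtp (3.22, SE 0.27) rose too. All 4 averaged under 10 CPM in other neutrophils.

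Slfn5 measured 896, 723, 852 and 780 CPM in high cells against 16.9, 16.6, 13.9 and 24.6 CPM in other cells, a log2 fold change of 5.16 (SE 0.11). This put high neutrophils above the 240 CPM of monocyte-like cells. Slfn4, already at 207 ± 4.72 CPM in other neutrophils, reached 1090 ± 119 CPM (log2 fold change 2.04, SE 0.09). Slfn8 rose by 3.91 (SE 0.19).

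Herc6, the main ISG15 ligase of mice, rose by 4.70 (SE 0.27). Isg20 measured 433, 582, 340 and 398 CPM in high cells and 28.9, 38.01, 29.2 and 39.9 CPM in other cells (3.35, SE 0.12), so a member that marks erythroid progenitors at rest also belonged to the set in neutrophils. Bst2 rose by 3.25 (SE 0.29) to 90.9 ± 26.4 CPM, far under its level in plasmacytoid dendritic cell-like cells. Oas1a (2.39, SE 0.33), Oas2 (2.33, SE 0.21) and Oas3 (1.93, SE 0.11) rose by less. Parp14, Xaf1 and Trim30a rose by 3.30, 3.27 and 2.42.

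Samd9l, a restriction factor of poxviruses and regulator of haematopoietic growth, changed least. It measured 504, 359, 451 and 439 CPM in high and 231, 283, 256 and 285 CPM in other cells (log2 fold change 0.39, SE 0.10). Its adjusted p by edgeR, 0.000921, was the largest of the 25. Without WT replicate 1 its change was 0.24 and did not pass, which left 24 of 25 members called.

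The comparison within cluster 0 alone, chosen after seeing the data, set high against other cells of a single cluster. All 25 members were again called higher, with a median log2 fold change of 2.69, from 1.15 for Samd9l to 5.21 for Gbp3. The next largest change was 4.59 for Ifi47. Which members, Gbp3 included, passed the filter on low counts by the other cells alone was not examined in this cluster. There 3.04% of 5132 genes were called higher. Over all mature neutrophil-like cells, 6 of 6 markers of immature neutrophils were called lower in high cells, with summed levels of 5671 to 14910 CPM against 47230 to 57680 CPM. Of the 8 markers of mature neutrophils, 5 were called higher and 3 lower, with overlapping sums (36350 to 53320 against 43690 to 52400 CPM). Of the 6 markers of neutrophil precursors, 3 were called lower (210 to 554 against 1334 to 1517 CPM). Plasma cell markers had 1 of 3 tested called higher (49.4 to 79.2 against 32.8 to 44.4 CPM), and conventional dendritic cell markers 1 of 2 (12.2 to 80.3 against 10.9 to 15.2 CPM). Of the markers of granulocyte-monocyte progenitors, monocytes, nonclassical monocytes and T cells, 1 each was called lower. Markers of macrophages summed to 66.7 to 118 CPM in high and 39.04 to 65.3 CPM in other cells, with 3 of 8 at 0 in high cells and none of the 4 tested called. Markers of plasmacytoid dendritic cells summed to 48.2 to 104 CPM in high and 34.1 to 43.8 CPM in other cells, with 5 of 8 at 0 in high cells and none of the 3 tested called. The part of these cells, of maturity and of depth in the changes was not tested further.

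A list of 86 further pathway genes, 84 of them with a row in the files, was read alongside. Of 71 tested, 50 rose and 1 fell, Ifnlr1, the receptor chain for type III interferons (18.9, 22.5, 26.1 and 26.1 CPM in other cells, 0, 13.1, 12.4 and 12.2 CPM in high cells, log2 fold change -1.69, SE 0.46). DESeq2 did not call Ifnlr1. Of 46 tested genes known to be induced by interferon, 40 rose, with a median log2 fold change of 2.09. Of the 9 receptor and kinase genes, 2 rose: Jak2 (0.73, SE 0.26) and Il10rb (0.63, SE 0.18). Ifnar1, the receptor chain for type I interferons, had a log2 fold change of -0.04 (SE 0.28) and its partner Ifnar2 of -0.05 (SE 0.18), neither past the test.

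Of the 10 signalling genes, 6 rose, among them the feedback inhibitors Socs1 (log2 fold change 1.46, SE 0.45) and Socs3 (1.29, SE 0.17). Of the 6 upstream sensor and adaptor genes tested, 2 rose, and the median log2 fold change of this group was 0.32. Gbp5 (7.49, SE 0.71) and Ifi211 (6.38, SE 0.53) had the largest fitted changes, but with 8 and 30 UMIs in other cells they passed the filter only through the high cells, as did Gbp4, Ifi213 and Ly6a. Of the 65 pathway genes that passed by the other cells alone, 45 rose. Cxcl10, the chemokine that draws Cxcr3-bearing lymphocytes, measured 329, 123, 136 and 97.5 CPM in high and 13.9, 1.70, 0.963 and 0.402 CPM in other cells (5.53, SE 0.29). Its level in WT replicate 1 was the highest in both subsets. Ifi207 (5.01), Gbp4 (4.53), Ifi213 (4.04), Ly6a (3.99), Ifi209 (3.90), Irgm1 (3.87) and Gbp7 (3.57) followed. Gbp4 had no UMI in the high cells of WT replicate 2 and YAP1 heterozygote replicate 2.

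Transcripts of the ligands were rare. Ifna1, Ifna2, Ifna4, Ifna5, Ifnl2 and Ifnl3 gave no UMI in any kept cell, and Ifnb1 gave 5. Ifng, made by T and NK cells, was the most abundant ligand at 2.86 ± 0.633 CPM over all kept cells. The highest of the other groups were Jak1 (170 ± 3.20 CPM), Irf8 (200.4 ± 9.99), Myd88 (34.7 ± 2.74) and B2m (1132 ± 46.7).

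Outside both lists, the largest called increases among well-expressed genes were Rnf213 (log2 fold change 2.70), Epsti1 (2.69), Ccl4 (2.55), Smchd1 (2.45) and 9930111J21Rik2 (2.31). The largest decreases were Olfml2b (-4.47), Ldhc (-4.05), Ly75 (-3.65), Camp (-3.28) and Ltf (-3.27), of which Camp and Ltf encode granule proteins of the immature neutrophil. In promoter windows, the GAAA repeat was present for 10.9% of the 451 genes called higher outside both lists, for 3.44% of the 786 called lower outside them and for 4.11% of 7413 tested genes with a window. Among the 21 tested members outside the core with a window, the 13 with the motif had a median change of 3.25 and the 8 without it of 3.03.

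Between genotypes no member passed the main test, which had no term for sex. Over all kept cells, edgeR called 0 of 38 members (background 0.0% of 15581 genes), with 0 at an unadjusted p under 0.05, and DESeq2 called 0. The median log2 fold change of YAP1 heterozygote over WT was 0.01 for the members and 0.01 for all genes, and for the members 0.17 and -0.13 without YAP1 heterozygote replicates 1 and 2. Bst2, the most abundant member, measured 142 and 169.8 CPM in WT and 139.7 and 157.7 CPM in YAP1 heterozygote libraries. Isg20 ranged most, from 21.7 CPM in WT replicate 1 to 51.7 CPM in WT replicate 2, and WT replicate 1 also had the fewest erythroid progenitor-like cells (144, against 236 to 458). Ifit3 was lower in both YAP1 heterozygote libraries (3.37 and 4.28 CPM) than in both WT libraries (4.87 and 5.27 CPM). The change was -0.39 on the log2 scale (SE 0.16), with adjusted p = 0.999 by edgeR. Over all kept cells 1 of the 38 members lay below without overlap, against 15% of all genes, and 1 above, against 11.1%.

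Within the 18 classes, edgeR called 0 of 514 member tests, with 25 (4.86%) at an unadjusted p under 0.05, and DESeq2 called 0. All genes had 4.75% at that unadjusted level. The share of all genes called was 0.471% in macrophage-like, 0.456% in T cell-like, 0.266% in plasma cell-like, 0.117% in nonclassical monocyte-like and 0.0587% in neutrophil precursor-like cells. It was 0.0544% in basophil or mast cell-like, 0.0366% in B cell precursor-like, 0.0299% in plasmacytoid dendritic cell-like, 0.0199% in B cell-like, 0.0103% in megakaryocyte-like and 0.00947% in HSPC-like cells, and 0.0% in the remaining classes. Over the 18 classes together both YAP1 heterozygote libraries lay above both WT libraries in 76 of the 514 member tests (14.8%), against 15.4% of all gene tests, and below them in 63 (12.3%), against 16.6%. The members' shares were thus near or under the background, and the classes described next were singled out after their values were seen. In mature neutrophil-like cells the median over 36 members was 0.07, with changes from -0.37 to 0.34. Leaving out a single library turned its sign: it was -0.03 when WT replicate 1 was dropped and -0.19 for YAP1 heterozygote replicate 2, but 0.19 for WT replicate 2 and 0.21 for YAP1 heterozygote replicate 1. It was 0.09 without the 2 clusters mostly of WT replicate 1, where 0 members were called. In simulated data with the spread of this class, 58% of genes changed 2-fold and 96% of those changed 4-fold were recovered, and 10% of those changed 1.5-fold. Of the calls made there, 7.8% were false. The simulated libraries had no deviation shared by replicate number or sex.

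**Figure D5:**
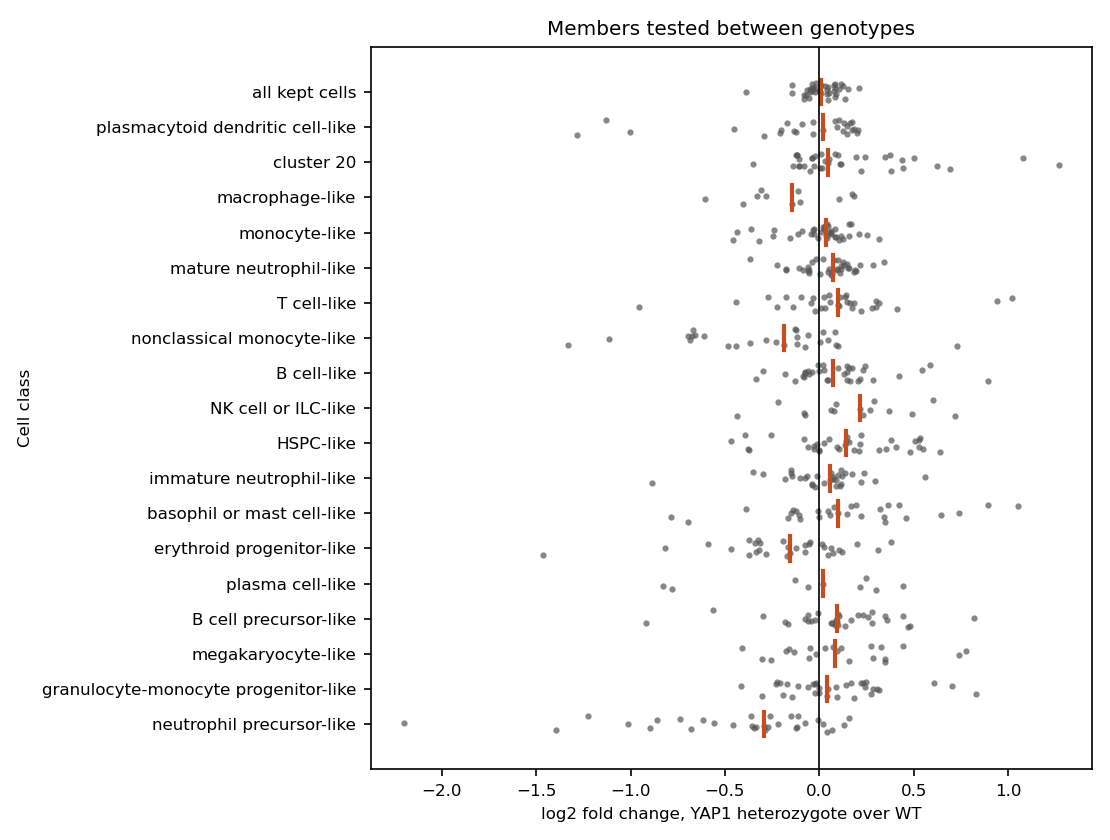
Log2 fold change (YAP1 heterozygote over WT) of each tested member in each cell class and in all kept cells, with a grey point per gene and an orange bar at the median. The medians lie between -0.29 in neutrophil precursor-like and 0.21 in NK cell or ILC-like cells, and no point passed the test.

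Neutrophil precursor-like cells had the lowest median, -0.29 over 31 members, with 26 of them below 0 and a median of 0.01 over all genes. The members' median lay between -0.17 (YAP1 heterozygote replicate 1 dropped) and -0.51 (YAP1 heterozygote replicate 2 dropped). Both YAP1 heterozygote libraries lay below both WT libraries for 12 of the 31, against 16.8% of all genes, and above for 0, against 12.7%. Isg15 measured 7.36 and 8.02 CPM in WT and 4.05 and 5.05 CPM in YAP1 heterozygote libraries, a change of -0.74 on the log2 scale (SE 0.20, adjusted p = 0.485 by edgeR). Ifit1 measured 2.10 and 1.03 CPM against 0.368 and 0.293 CPM (-2.20, SE 0.54, edgeR adjusted p = 0.377). It rested on 28 and 13 UMIs in WT, of which a single cell of WT replicate 1 gave 15. Slfn4 measured 43.1 and 34.2 CPM against 32.4 and 31.3 CPM (-0.26, SE 0.11). Zbp1, Usp18, Irf7 and Slfn5 also had an unadjusted p under 0.05 there and lower values in YAP1 heterozygote libraries, all under 6 CPM. With the replicate number as a block, Isg15 (adjusted p = 0.0186 by edgeR) and Ifit1 (adjusted p = 0.0113) passed. In the main fit no member passed. With no filter on low counts and no block, Isg15 (adjusted p = 0.0318 by edgeR) and Ifit1 (adjusted p = 0.0145 by edgeR) passed too. The members share cells and libraries, so their common direction is a description.

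Nonclassical monocyte-like cells had 20 of 27 members below 0 (median -0.19), with 10 below without overlap against 15.7% of all genes. With a library dropped the median ranged from -0.04 (WT replicate 2) to -0.66 (YAP1 heterozygote replicate 2), and was -0.30 for WT replicate 1 and -0.10 for YAP1 heterozygote replicate 1. It was -0.09 with high cells left out (18 of 27 below 0) and -0.04 with doublets kept (15 of 28). S100a8 and S100a9 summed to 132510 and 81141 CPM in WT and 73960 and 92890 CPM in YAP1 heterozygote libraries of this class, which overlapped, and the part of neutrophil RNA was not tested. Cmpk2, a mitochondrial nucleotide kinase, measured 40.6 and 32.3 CPM in WT and 15.6 and 17.8 CPM in YAP1 heterozygote libraries (log2 fold change -1.11, SE 0.39, edgeR adjusted p = 0.828). The change was -0.57 with doublets kept, and its mean in mature neutrophil-like cells was 47.8 CPM. HSPC-like cells went the other way: 12 of 35 members lay above without overlap, against 17.1% of all genes, with a median of 0.14, which was 0.07 without YAP1 heterozygote replicate 2 or with interferon genes in the clustering. Trim30a there measured 54.3 and 56.7 CPM in WT and 69.8 and 76.9 CPM in YAP1 heterozygote libraries (0.38, edgeR adjusted p = 1.00).

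In T cell-like cells Isg15 measured 14.5 and 14.4 CPM in WT and 42.3 and 18.7 CPM in YAP1 heterozygote libraries (log2 fold change 1.02, SE 0.33, edgeR adjusted p = 0.507). With the replicate block it passed (adjusted p = 0.0146 by edgeR). It also passed without a block when low counts were not filtered (adjusted p = 0.0216 by edgeR). A single cell gave 26 of the 67 UMIs of YAP1 heterozygote replicate 1. In this class 5 of 32 members lay above without overlap, against 17% of all genes, and 3 below, against 17.2%. In plasmacytoid dendritic cell-like cells Rsad2 measured 8.82 and 14.0 CPM in WT and 3.47 and 5.73 CPM in YAP1 heterozygote libraries (-1.28, edgeR adjusted p = 0.484). Bst2 overlapped between genotypes. There 7 of 27 members lay below without overlap, against 19.3% of all genes, and 3 above, against 16.3%. Of the pathway list, the main fit called 0 genes over all kept cells or in any class. In it, 2 of 76 tested over all kept cells had an unadjusted p under 0.05. With the replicate block, 1 of 65 pathway genes tested in B cell-like cells was called higher and 2 lower.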

How the data were processed

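Single-cell RNA was counted at the 3' end (10x Chromium, kit version 3.1, per the labels' protocols). The authors deposited raw UMI counts per gene and barcode, with at least 500 UMIs per barcode; the file headers name Cell Ranger 5.0.0, the submitters' processing notes Cell Ranger 3.0.0, Seurat 4.3.0 and GRCm38, and which version made the counts was not settled. Barcodes needed 500 UMIs, 200 detected genes and a mitochondrial share of no more than 10%, and doublets called by Scrublet in scanpy 1.11.5 removed (3.38% to 4.40% per library). Clustering (2000 variable genes, 30 components, 15 neighbours, Leiden resolution 1.0) left out members and pathway genes. Clusters were named from 21 marker lists. UMI sums for each class in each library went into edgeR 4.0.16 (quasi-likelihood, filterByExpr, TMM, Benjamini-Hochberg over all tested genes, threshold 0.05), with DESeq2 1.42.0 beside it. Positions came from GENCODE M21.

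Values by library were printed for the 10 most abundant members, members leading a class by at least 2 times or called between genotypes. Pathway genes were printed where called between genotypes, for the 10 largest called changes in high neutrophils and for the highest of each group. Outside the lists, up to 5 genes per direction were printed where edgeR's mean log2 CPM reached 5. Others were singled out after their values were seen. Members and lists were chosen with earlier results of these data known. On simulated counts (9362 genes, high against other), 42% of genes changed 2-fold and 78% of those changed 8-fold were recovered, and 5.21% of calls were false. Oas1b and Mx2 of the pathway list were not analysed here. Not every gene of the lists is reported here.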

Additional observations from a re-analysis of the deposited data

Results flagged for a closer look

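The summed member level lay on opposite sides of WT in different classes, with both libraries of a genotype on the same side. The YAP1 heterozygote mean over the WT mean was 0.780 in nonclassical monocyte-like, 0.825 in plasma cell-like and 0.892 in neutrophil precursor-like cells. It was 1.06 in B cell-like, 1.11 in HSPC-like and 1.15 in basophil or mast cell-like cells. In nonclassical monocyte-like cells the sums were 1123 and 1226 CPM in WT and 743 and 1089 CPM in YAP1 heterozygote libraries. In basophil or mast cell-like cells they were 596 and 568 CPM against 682 and 654 CPM. In the remaining 12 of 18 classes the genotypes overlapped. Of all single-gene tests in these classes, 15.4% lay above and 16.6% below without overlap, beside 3 of the 18 class sums on each side. Among all genes of plasma cell-like cells, however, 37.6% lay below and 4.64% above. The basophil or mast cell-like class had 25.8% above and 11.2% below. On the side of their sum, the other classes named had 15.7% (nonclassical monocyte-like), 16.8% (neutrophil precursor-like), 17.8% (B cell-like) and 17.1% (HSPC-like). Whether a class sum merely follows all genes of its class was not tested. The difference between classes was not tested.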

How the results depend on the processing

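The count of members called between genotypes in the classes was 0; it was 3 with the replicate block, 4 without a filter on low counts and between 0 and 6 when a library was left out (6 when this was WT replicate 2, 4 for YAP1 heterozygote replicate 2 and 2 for WT replicate 1). Each lone library was then assumed to vary like the other group. Under the block, Isg15 in T cell-like cells (log2 fold change 0.97) and Isg15 and Ifit1 in neutrophil precursor-like cells (-0.74 and -2.19) passed. The labels do not say that replicate numbers mark a shared batch, but replicate number went with sex in both genotypes. The block thus also takes out sex, which the main fit leaves in the spread between libraries. Over all kept cells same-numbered libraries deviated together (r = 0.487 across 15581 genes), between 0.077 and 0.471 in the classes. Rsad2 in basophil or mast cell-like cells was called at 2.06 without WT replicate 1 and at -1.60 without WT replicate 2. Calls over all genes in the classes went from 99 to 1509 with the block, 179 by DESeq2, 1487 without a filter and between 619 and 3254 with a library left out. Over all kept cells 0 members were called under every alternative run. The 25 members outside the core stayed called in every alternative of the high comparison except Samd9l without WT replicate 1. Ifnlr1 also lost its call by DESeq2 (-1.59), without WT replicate 1 (-1.32), at a limit of 8 (-1.15) and within cluster 0 (-1.10). Ifi213 lost it with replicate 1 of WT (3.82) or of YAP1 heterozygote (3.22) left out, and Ifi209 within cluster 0 (1.84).

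The share of high mature neutrophil-like cells (2.16% in WT, 1.96% in YAP1 heterozygote libraries) was 4.79% and 5.07% at a limit of 3 UMIs, 0.870% and 0.806% at 8, 1.38% and 1.30% when thinned to 2000 UMIs, and 1.62% and 1.33% with no thinning. The WT share was 2.38% with doublets kept, 2.36% with interferon genes in the clustering and 1.84% without the clusters mostly of 1 library. With doublets kept, summed levels were 674 CPM in HSPC-like, 433 in erythroid progenitor-like, 311 in granulocyte-monocyte progenitor-like, 750 in immature neutrophil-like, 499 in megakaryocyte-like and 1263 CPM in monocyte-like cells. Without high cells they were 572 CPM in basophil or mast cell-like cells and 1772 CPM in cluster 20.

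The smallest change detectable in the rarer classes was not measured. Names of classes were rebuilt from markers, and droplets can hold free RNA.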
